A study of Homo sapiens with 6 samples.

Results

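The OAS and RNase L system is described here through 6 genes, OAS1, OAS2, OAS3, OASL, ABCE1 and PDE12, of the 60617 genes in the deposited count table. The members were taken by gene symbol, by a rule that uses no measured value, although the set was proposed with earlier results of these data known. All 6 passed the filter on low counts. The libraries came from A549 cells, an established line derived from human lung cancer. The groups were a YTHDF1 knockout and wild-type cells of the same line, with 3 biological replicates each, per the labels. Both groups were grown in RPMI medium with fetal bovine serum, and the labels name no virus, interferon or other agent. YTHDF1 is a cytoplasmic reader of N6-methyladenosine in RNA. Nothing in the labels says whether the knockout libraries came from 1 clone or several, so the p-values measure the spread between these libraries, which may be technical.

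The OAS proteins are interferon-induced sensors of double-stranded RNA. On binding it, OAS1, OAS2 and OAS3 join ATP into short adenylate chains with an unusual linkage, called 2-5A, and these chains activate RNase L, which cuts single-stranded cellular and viral RNA and so halts translation. In A549 cells infected with viruses, OAS3 is known as the synthase on which activation of RNase L mainly depends. OASL lost the synthase activity, carries ubiquitin-like domains and is known to enhance RIG-I signalling. ABCE1 was first described as an inhibitor of RNase L and is an ATPase that splits ribosomes after termination, while PDE12 degrades 2-5A and also removes poly(A) from mitochondrial RNA. The gene for RNase L itself is not analysed here.

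OAS1, OAS3 and OAS2 lie in that order on the plus strand of chromosome 12, in a cluster of 104.9 kb from 112906777 to 113011723 (GRCh38, GENCODE 29), with gaps of 5.13 kb and 5.14 kb between the genes. OASL lies on the minus strand of the same chromosome, from 121019111 to 121039242. ABCE1 is on chromosome 4 from 145097932 to 145129179 and PDE12 on chromosome 3 from 57556276 to 57566844, both on the plus strand. All 6 are annotated as protein coding.

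Upstream sequence from RefSeq (GRCh38.p14) was matched by symbol for 4 of the 6 members, OAS1, OAS3, ABCE1 and PDE12. The windows of OAS1 and OAS3 are shown because these neighbouring genes had high levels together in the knockout libraries. Each runs 5′ to 3′ over the 250 bases before the RefSeq start, and capitals mark matches to the core of the interferon-stimulated response element (ISRE), GAAANNGAAA, or to the shorter core bound by interferon regulatory factors (IRF), AANNGAAA, on either strand.
OAS1, chr12:112906712-112906961, plus strand: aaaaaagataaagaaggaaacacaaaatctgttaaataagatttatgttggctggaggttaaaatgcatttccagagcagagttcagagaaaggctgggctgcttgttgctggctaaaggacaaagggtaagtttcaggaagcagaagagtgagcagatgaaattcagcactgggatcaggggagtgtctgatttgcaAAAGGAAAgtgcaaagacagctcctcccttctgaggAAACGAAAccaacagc
OAS3, chr12:112938224-112938473, plus strand: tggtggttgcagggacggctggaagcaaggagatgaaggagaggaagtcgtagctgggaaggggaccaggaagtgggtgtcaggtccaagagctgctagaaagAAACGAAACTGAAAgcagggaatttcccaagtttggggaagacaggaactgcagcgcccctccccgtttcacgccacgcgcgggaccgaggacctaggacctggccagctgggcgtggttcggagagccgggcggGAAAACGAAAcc
In the OAS3 window the ISRE core matched at positions -143 to -134 (GAAACTGAAA) and -12 to -3 (GAAAACGAAA), counted back from -1 at the last base before the start. OAS3 had 3 matches to the IRF core, at -147 to -140, -141 to -134 and -10 to -3, and the last 2 of them lie within the ISRE matches. In the OAS1 window the ISRE core had no match, and the IRF core matched at -52 to -45 (AAAGGAAA) and -16 to -9 (AAACGAAA). A match to the gamma-activated site TTCNNNGAA was found in OAS1 only among these 4, at -168 to -160 (TTCAGAGAA). The windows of ABCE1 and PDE12 held none of the 3 motifs. Over all 35116 windows of the same length, the share with a match was 3.02% for the ISRE core, 20.3% for the IRF core and 6.57% for the gamma-activated site. A match of letters is a description of the window and not evidence of binding.

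Libraries held between 27238817 and 40675628 counts, so that 3 counts equalled 0.0738 to 0.11 CPM, the count scaled to a common library total. YTHDF1 RNA averaged 48.1 ± 0.87 CPM in knockout libraries and 99.4 ± 3.89 CPM in wild-type libraries (SD, n = 3 each), so the targeted transcript was reduced and still detected. Of 18505 genes tested with edgeR's quasi-likelihood test and Benjamini-Hochberg adjustment, 9893 (53.5%) passed the adjusted p threshold of 0.05, with 27.2% of all genes higher and 26.3% lower in the knockout. The epithelial and A549 markers summed to between 11080 and 11660 CPM in knockout libraries and between 11810 and 12640 CPM in wild-type libraries, although EPCAM was low, at 1.94 CPM in knockout and 2.1 CPM in wild type. Leukocyte markers, 2 of 11 with enough counts to test, summed to 3.54 to 4.37 CPM in knockout libraries and 12.2 to 12.7 CPM in wild-type libraries, nearly all of it CD14, and CD3D, CD3E and MS4A1 were at 0 in every library. All 5 fibroblast markers summed to 43.2 to 46.4 CPM in knockout libraries and 30.1 to 35 CPM in wild-type libraries, mostly COL1A1, with COL1A2 at 0 in the knockout libraries. The 4 endothelial markers summed to at most 0.464 CPM in knockout libraries and 1.07 CPM in wild-type libraries. The 13 mitochondrially encoded mRNAs, taken as a sign of RNA quality, were all lower in the knockout, at 37060 to 39500 summed CPM in knockout libraries and 58050 to 59850 in wild-type libraries, and their part in the results below was not tested.

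All 4 OAS genes rose in the knockout libraries, by between 17.6-fold and 2099-fold, and ABCE1 and PDE12 fell, to 0.664 and 0.835 times their wild-type means. The 4 rises and 2 falls stand against 27.2% of all tested genes called higher and 26.3% called lower. No library of one group reached the range of the other for any of the 6 genes. The groups were likewise apart for 58.9% of all genes tested, with the knockout above wild type for 29.8% and below it for 29.1%. In bulk RNA, a change in the number of cells expressing a gene and a change in RNA per cell cannot be told apart.

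**Figure D1:**
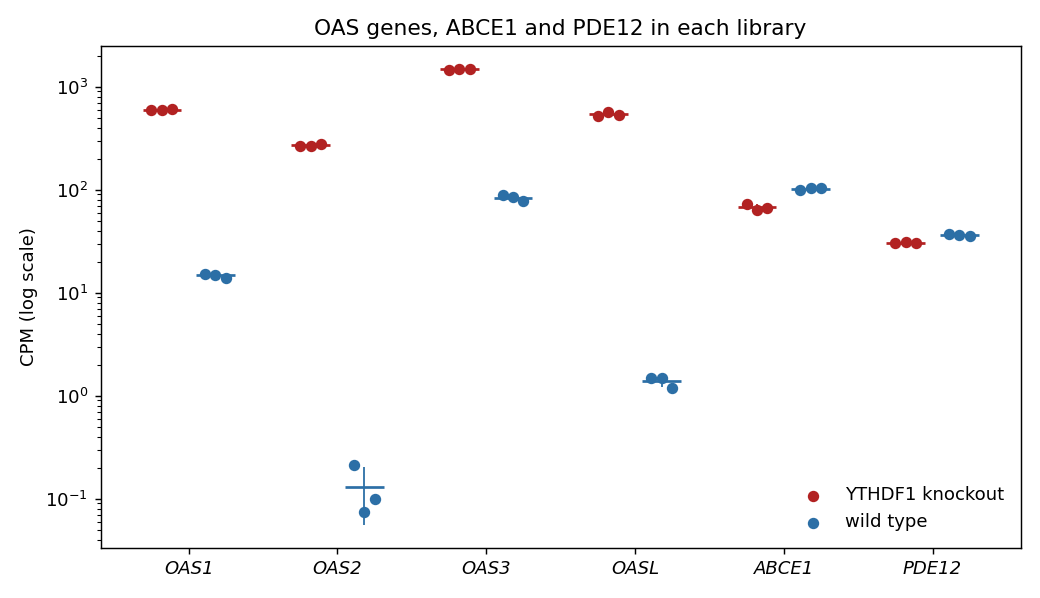
Level of each member in each library, as CPM on a log scale (points), with the mean (horizontal line) and SD (vertical line) of the 3 YTHDF1 knockout libraries at left and the 3 wild-type libraries at right. The OAS genes lie far higher in the knockout, with OAS2 near 0.1 CPM in wild type, while ABCE1 and PDE12 lie slightly lower.

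OAS1 (ENSG00000089127), the smallest of the synthases, had 593, 599 and 602 CPM in the knockout libraries, against 15.1, 15.0 and 14.0 CPM in the wild-type libraries. All knockout values lay within a narrow band, with a coefficient of variation of 0.8%, far above every wild-type value. OAS1 rose by 5.35 on the log2 scale (SE 0.0528), and the adjusted p was 6.16e-38 in the quasi-likelihood test of edgeR. Of its exonic bases, 1.86% overlap the antisense gene AC004551.1 on the opposite strand.

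OAS2 (ENSG00000111335), a synthase active as a dimer, was close to undetected in wild-type cells. It had 8554, 10950 and 11193 counts in the knockout libraries, against 8, 2 and 4 counts in the wild-type libraries. As levels these were 265, 268 and 275 CPM in the knockout libraries and 0.211, 0.0742 and 0.0999 CPM in the wild-type libraries. Wild-type libraries 2 and 3 therefore sat at or near the level of 3 counts, whereas no knockout library had fewer than 8554. The ratio of summed counts, 30697 over 14 and scaled for depth, was 2020 with an exact 95% counting interval of 1200 to 3700, which covers counting error only. OAS2 rose by 10.94 on the log2 scale (SE 0.108, adjusted p of 6.16e-38 in edgeR), the 16th largest rise of all genes tested. That SE comes from the test statistic and is narrower than the counting interval, so it understates the error of the fold change.

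OAS3 (ENSG00000111331), the largest synthase, was the most abundant OAS transcript in both groups. Its level was 1463, 1485 and 1493 CPM in the knockout libraries, against 89.8, 85.0 and 77.1 CPM in the wild-type libraries. Only 0.276% of tested genes had a higher mean CPM in the knockout, compared with 13.9% in wild type. OAS3 rose by 4.14 on the log2 scale (SE 0.0493, adjusted p of 1.22e-35 in edgeR), the smallest rise of the 4 OAS genes.

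OASL (ENSG00000135114), the member without synthase activity, had 526, 566 and 527 CPM in the knockout libraries, against 1.48, 1.48 and 1.20 CPM in the wild-type libraries. Knockout library 2 was the highest, and the coefficient of variation of 4.19% was the widest among the OAS genes in the knockout. OASL rose by 8.61 on the log2 scale (SE 0.0755, adjusted p of 2.44e-39 in edgeR), the 34th largest rise of all genes tested, while OAS1 ranked 98 and OAS3 ranked 161. The SE of OASL also comes from the test statistic and is too small for a gene with 144 wild-type counts. Rises of at least 4 on the log2 scale were called for 0.919% of tested genes, and all 4 OAS genes were among them.

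**Figure D2:**
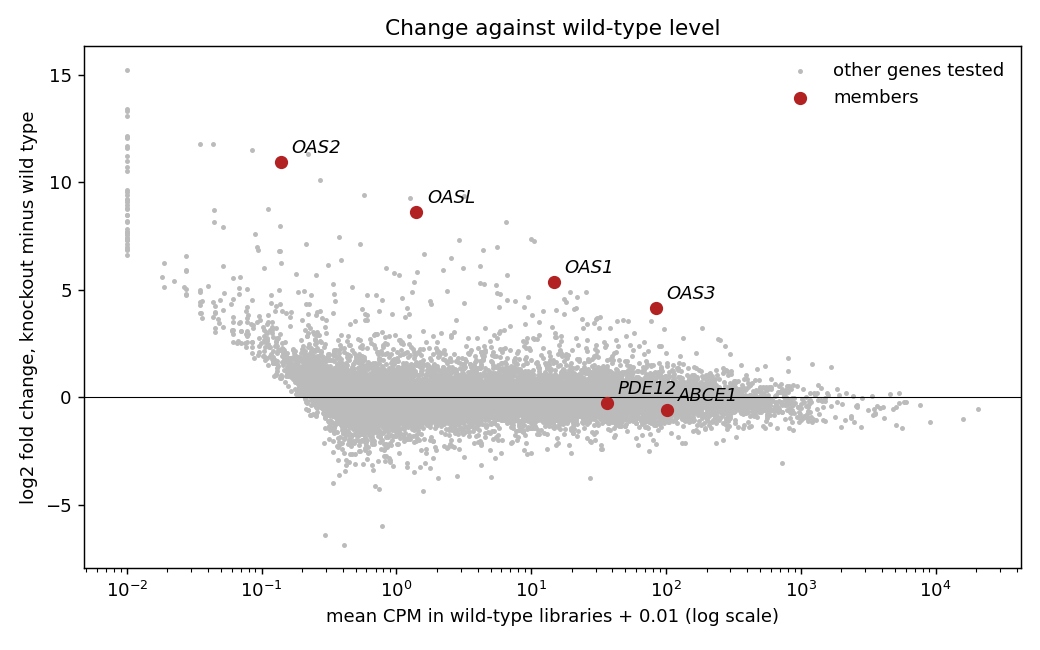
Log2 fold change, knockout minus wild type, of every gene tested (grey) against its mean wild-type level plus 0.01 CPM on a log scale, with the 6 members in red. Among the OAS genes the rise is larger where the wild-type level is lower, with OAS2 at 10.94 and OAS3 at 4.14, and ABCE1 and PDE12 lie just below 0.

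Levels of different genes were compared per kb of annotated exon, since the members differ in exonic length from 3.52 kb for OASL to 8.95 kb for PDE12. In the knockout libraries the order was OAS3 at 179 ± 1.93, OASL at 153 ± 6.43, OAS1 at 121 ± 0.967 and OAS2 at 43.0 ± 0.822 CPM per kb (SD, n = 3). In the wild-type libraries it was OAS3 at 10.2 ± 0.775, OAS1 at 2.97 ± 0.124, OASL at 0.394 ± 0.0463 and OAS2 at 0.0205 ± 0.0116 CPM per kb (SD, n = 3). Neighbours in either order did not overlap between libraries. Per kb, OASL and OAS1 thus stood in the opposite order in the 2 groups. The ratio of the highest to the lowest OAS gene was far smaller in the knockout, while the difference between them in CPM per kb was larger. In CPM, OAS1 was above OASL in both groups, at 598 and 540 in knockout and 14.7 and 1.39 in wild type. Their order in the knockout therefore depends on the exon lengths used. ABCE1, at 10.8 ± 0.753 in knockout and 16.3 ± 0.279 CPM per kb in wild type, lay below all 4 OAS genes in the knockout and above all 4 in wild type.

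The make-up of the OAS transcripts differed between the groups. OAS3 made up 36.1% ± 0.411 of the summed OAS level per kb in knockout libraries and 75.0% ± 0.532 in wild-type libraries (SD, n = 3 each). OASL took 30.9% ± 0.877 in the knockout and 2.9% ± 0.173 in wild type, and OAS2 took 8.66% ± 0.177 in the knockout and 0.149% ± 0.0764 in wild type. OAS1 took 24.3% ± 0.307 in the knockout and 22.0% ± 0.669 in wild type. The 4 genes together took 0.287% to 0.294% of all counts in the knockout libraries and 0.00914% to 0.0106% in the wild-type libraries.

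**Figure D3:**
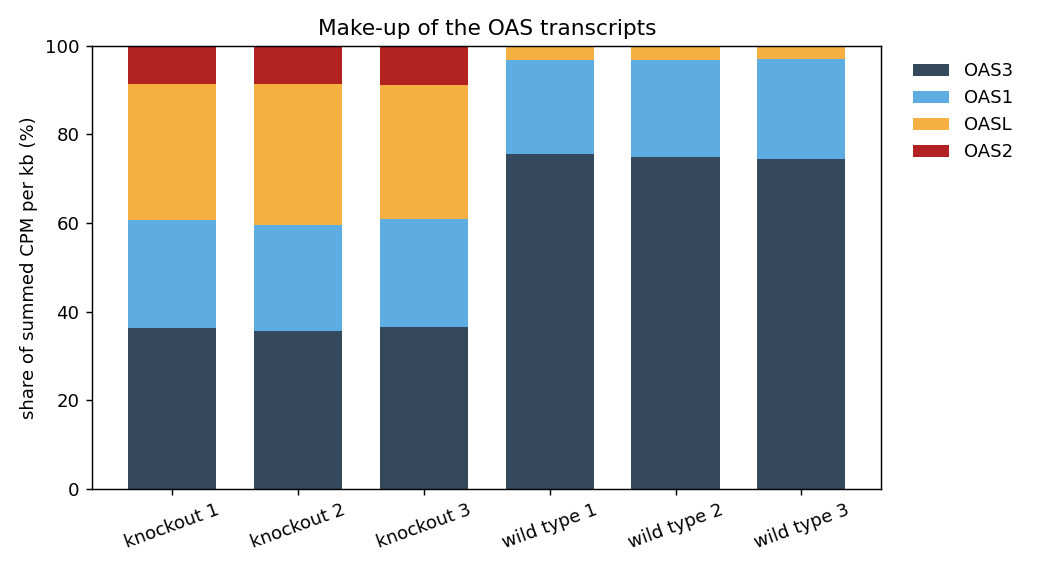
Share of each OAS gene in the summed OAS level (CPM per kb of exon, in %) in each library, with the 3 knockout libraries at left and the 3 wild-type libraries at right. OAS3 fills 36.1% of the knockout bars and 75.0% of the wild-type bars on average, and OASL and OAS2 are visible as large parts only in the knockout bars.

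Whether the OAS genes moved by different amounts was tested within libraries, as the log2 ratio of each of the 6 pairs of genes. The largest shift was that of OAS2 over OAS3, with a log2 ratio of -2.46 ± 0.0149 in knockout and -9.32 ± 0.642 in wild type, a difference of 6.86. OAS1 over OAS2 shifted by -5.66, OAS3 over OASL by -4.45, OAS1 over OASL by -3.25 and OAS2 over OASL by 2.41. The smallest shift was that of OAS1 over OAS3, at -1.31 ± 0.00423 in knockout and -2.51 ± 0.0541 in wild type, a difference of 1.20. In every pair the 3 knockout ratios lay apart from the 3 wild-type ratios, and the two-sided exact permutation p was 0.1 for each pair, also after adjustment over the 6 pairs. This is the smallest p that the exact permutation test can give with 3 against 3 libraries, so that test could not reach 0.05.

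ABCE1 (ENSG00000164163), the ribosome recycling factor and RNase L inhibitor, had 73.0, 63.7 and 67.1 CPM in the knockout libraries, against 100.4, 102.8 and 103.8 CPM in the wild-type libraries. Knockout library 1 was closest to wild type and still lay well below it. ABCE1 fell by 0.59 on the log2 scale (SE 0.0528, adjusted p of 1.73e-11 in edgeR). Genes on the opposite strand overlap 11.9% of its exonic bases, among them OTUD4, which rose by 0.59 to 133 ± 10.8 CPM in knockout, against 88.2 ± 7.18 CPM in wild type, and ANAPC10. The kit marks strand, but no source used here says whether the counting used it, so the level of ABCE1 is uncertain.

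PDE12 (ENSG00000174840), the enzyme that degrades 2-5A, had 30.1, 31.2 and 30.3 CPM in the knockout libraries, against 37.1, 36.7 and 35.9 CPM in the wild-type libraries. The groups were separate but close. PDE12 fell by 0.26 on the log2 scale (SE 0.0664, adjusted p of 0.00128 in edgeR), the smallest of the 6 changes. Summed over OAS1, OAS2 and OAS3, the synthases stood at 101 ± 1.95 times PDE12 per kb in the knockout libraries and 3.22 ± 0.165 times in the wild-type libraries (SD, n = 3 each), a ratio of RNA levels and not of enzyme activities. The other 2 genes listed for cutting 2-5A were low and rose. AKAP7, whose protein also cuts this linkage, had 6.72 ± 0.451 CPM in knockout and 4.62 ± 0.32 CPM in wild type and rose by 0.55, and ENPP1, a nucleotide pyrophosphatase, had 11.6 ± 0.464 CPM in knockout and 6.63 ± 1.14 CPM in wild type and rose by 0.80.

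The neighbouring protein-coding genes named here that could be tested changed by less than any OAS gene. RPH3A, 7.9 kb from OAS1, had 2.04 ± 0.998 CPM in knockout and 0.471 ± 0.126 CPM in wild type and rose by 2.06 (SE 0.37, adjusted p of 1.55e-05 in edgeR). On the other side, DTX1, 45 kb from OAS2, did not pass the test, with 1.41 ± 0.533 CPM in knockout and 0.874 ± 0.218 CPM in wild type. Next to OASL, P2RX7 had no counts. HHIP and SMAD1, the nearest protein-coding genes beyond those that overlap ABCE1, lie 352.7 kb and 352 kb from it. They changed in opposite directions, as HHIP fell by 1.24 and SMAD1 rose by 0.58. Beside PDE12, neither ARF4, at 131 ± 2.04 CPM in knockout and 129 ± 5.09 CPM in wild type, nor DNAH12, under 1 CPM in both groups, passed.

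**Figure D4:**
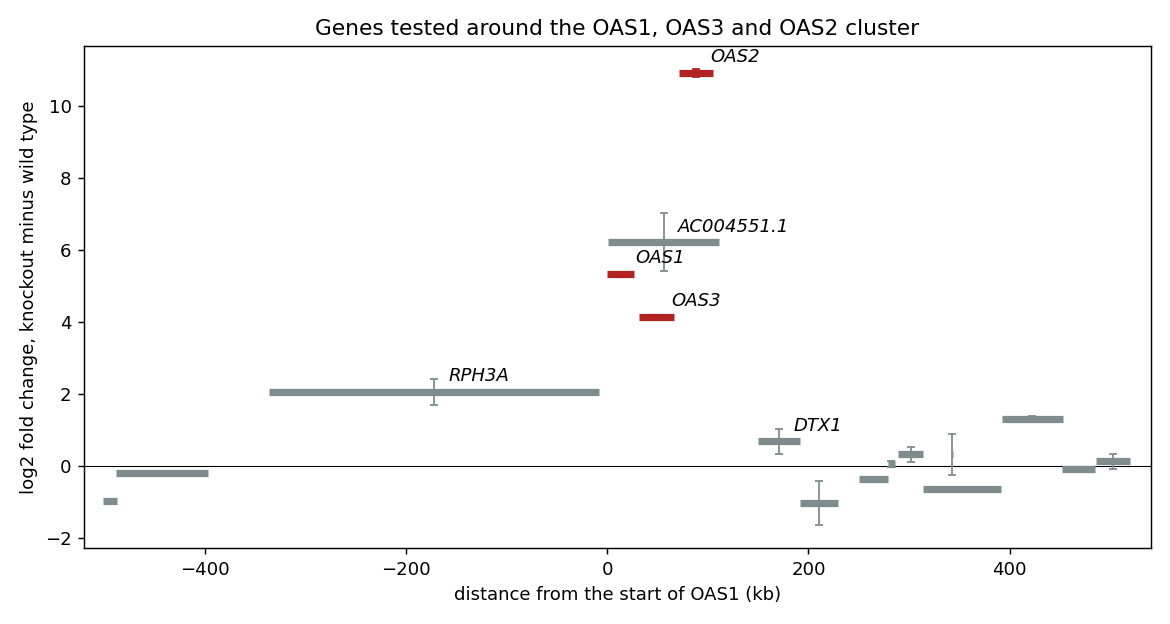
Log2 fold change, knockout minus wild type, of each gene tested within 500 kb of the start of OAS1, drawn as a bar over the span of the gene with its SE, against distance in kb. The SE comes from the test statistic and understates the error of OAS2. The 3 OAS genes (red) stand at 4.14 to 10.94, with the antisense gene AC004551.1 at 6.22, and the other genes lie between -1.03 and 2.06.

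Genes with the most similar pattern were sought among 11239 others with a symbol and a mean of at least 5 CPM, by the root mean square difference of centred log2 CPM over the 6 libraries. For OAS3 they were NLRC5 (0.0521), PARP9 (0.0595) and SAMHD1 (0.0738), and for OAS1 they were HERC5 (0.128), TRIM31 (0.129) and RIGI (0.149). OASL was closest to IFIT1 (0.244), MX2 (0.309) and CMPK2 (0.41). For OAS2 the closest were CXCL10 (0.431), IDO1 (0.434) and CXCL11 (0.457), each with 0 counts in wild type, so the distance depends on the prior count. ABCE1 was closest to SSR1 (0.0208) and MT-ND6 (0.0231), and PDE12 to ABR (0.014) and RPS21 (0.0145).

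Upstream of the OAS genes, 9 of 13 double-stranded RNA sensors and binding proteins rose and 3 fell, where 27.2% of all genes tested rose and 26.3% fell. Their median log2 fold change was 1.50, against 0.00109 over all genes tested. IFIH1 and RIGI, the sensors that signal through MAVS, rose by 6.84 and 5.37. EIF2AK2, the kinase PKR that halts translation on double-stranded RNA, rose by 2.06 to 699 ± 34.2 CPM in knockout, against 168 ± 3.79 CPM in wild type. ADAR, the deaminase that edits adenosine in double-stranded RNA, rose by 1.50 to 1019 ± 16.3 CPM in knockout, against 361 ± 4.43 CPM in wild type. The binding protein genes DHX9 and PRKRA, picked once their values were known, fell by 0.52 and fell by 0.29.

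Of 12 genes for interferon receptors, their kinases and transcription factors that drive interferon-stimulated genes, 7 rose and 1 fell. Over all genes tested, 27.2% were called higher and 26.3% lower. The median log2 fold change of these 12 genes was 0.41, and it rests in part on IFNAR2, at 0.27. IFNAR2 and IL10RB, neither of them called, overlap a gene on their own strand by 44.2% and 38.1% of their exonic bases. Their levels are therefore uncertain. STAT2, part of the complex that binds the ISRE, rose by 3.55 to 611 ± 16.3 CPM in knockout, against 52.0 ± 1.01 CPM in wild type. IRF1 rose by 2.83, and IRF7, a factor that amplifies interferon expression, rose by 5.99. JAK1, which fell by 0.18, was picked once its value was known, as was IRF9, the DNA-binding partner of STAT2. IRF9 was listed at 0.497 ± 0.0578 CPM in knockout and 0.131 ± 0.0553 CPM in wild type, but a gene on its own strand overlaps 48.4% of its exonic bases, which makes this level uncertain. For IRF1, 22% of the exonic bases overlap genes on the opposite strand.

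Among antiviral ribonucleases and RNA decay factors, 10 of 12 rose and 1 fell, again against 27.2% higher and 26.3% lower over all genes tested. The median log2 fold change was 1.12. SAMHD1, a nucleotide triphosphohydrolase, rose by 4.16, and ISG20, an interferon-induced exonuclease, rose by 4.81 to 170 ± 4.15 CPM in knockout, against 5.91 ± 1.59 CPM in wild type. ZC3HAV1, the zinc finger antiviral protein that binds CpG-rich RNA, rose by 1.36, and its cofactor TRIM25 rose by 2.08. SKIC3, of the complex that feeds the cytoplasmic exosome, fell by 0.21 and was picked once its value was known.

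**Figure D5:**
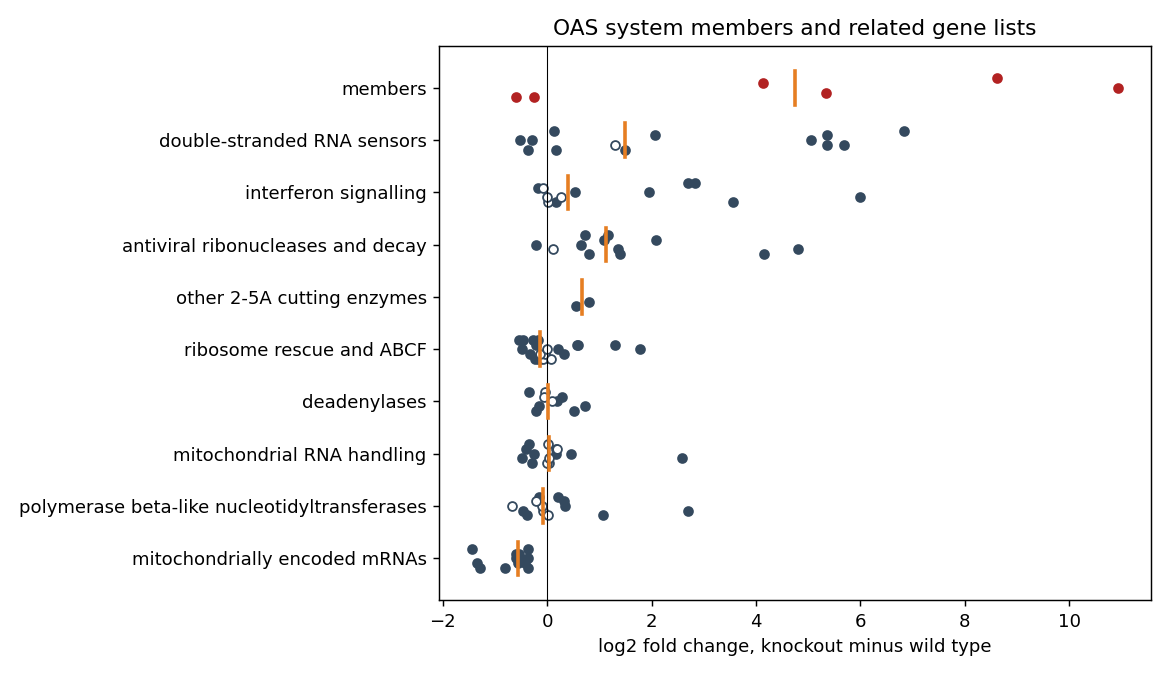
Log2 fold change, knockout minus wild type, of the members (red) and of the genes of each related list (dark), with filled points past an adjusted p of 0.05 in edgeR, open points not past it, and the median as an orange line. The sensor and ribonuclease lists have medians of 1.50 and 1.12, while the medians of the ribosome rescue, deadenylase, mitochondrial RNA and nucleotidyltransferase lists lie between -0.13 and 0.03.

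Of 21 genes for ribosome rescue, recycling and quality control and the related ABCF proteins, 6 rose and 10 fell, and their median log2 fold change was -0.13. The share that rose was close to the 27.2% of all genes tested, and 26.3% of all genes fell. GTPBP1 and GTPBP2, GTPases linked to stalled ribosomes, rose by 1.79 and 1.30, and ANKZF1, which releases stalled chains, rose by 0.60, while ASCC3, a helicase that splits collided ribosomes, fell by 0.54. PELO and HBS1L, which act with ABCE1 on stalled ribosomes and were picked once their values were known, went apart. PELO had 57.3 ± 1.06 CPM in knockout and 38.5 ± 1.58 CPM in wild type and rose by 0.57, and HBS1L had 33.1 ± 2.6 CPM in knockout and 46.0 ± 0.369 CPM in wild type and fell by 0.47.

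Genes related to PDE12 by function moved in both directions, as did all genes tested, of which 27.2% rose and 26.3% fell. Whether the small lists below differ from these shares was not tested. Of 10 deadenylase genes, 4 rose and 3 fell, with a median log2 fold change of 0.02. CNOT8, a catalytic subunit of the CCR4-NOT complex, rose by 0.51, NOCT by 0.72 and CNOT6L by 0.28, and the poly(A)-specific ribonuclease PARN fell by 0.35. Of 14 genes for mitochondrial RNA handling, 4 rose and 5 fell, with a median of 0.03. PNPT1, the mitochondrial polynucleotide phosphorylase, rose by 2.58 to 408 ± 15.6 CPM in knockout, against 68.1 ± 4.3 CPM in wild type, and FASTKD4 rose by 0.46, while FASTKD2 fell by 0.48 and HSD17B10 fell by 0.40. Next to these, the mitochondrially encoded mRNAs had a median of -0.55.

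Nucleotidyltransferases that share the fold of the OAS proteins showed 5 rises and 3 falls among 13, with a median log2 fold change of -0.08. Over all genes tested, 27.2% were called higher and 26.3% lower, and whether this small list differs from these shares was not tested. TENT5A, a poly(A) polymerase, rose by 2.70 to 68.1 ± 4.67 CPM in knockout, against 10.5 ± 0.488 CPM in wild type. CGAS, the DNA sensor built on the same fold as OAS1, rose by 1.08 to 21.6 ± 2.41 CPM in knockout, against 10.2 ± 0.153 CPM in wild type. TUT4 fell by 0.46 and TENT4B fell by 0.38.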

How the data were processed

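Total RNA libraries were made with an Illumina TruSeq stranded kit, per the labels' protocols. The authors deposited raw counts per Ensembl gene with no normalization. The build was GRCh38 and the software included featureCounts 2.0.1, STAR 2.7.0d, edgeR 3.32.1 and Trim Galore 0.6.6, per the submitters' processing notes. The role of each tool, the annotation, the strand setting and the treatment of multiply mapped reads were not given in the sources used here.

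Samples were grouped by title. Symbols came from a symbol table, then from GENCODE 29, which also gave coordinates and exon lengths and may differ from the authors' annotation. Counts were filtered with filterByExpr, scaled by TMM and tested with edgeR 4.0.16 (quasi-likelihood, genotype only, two-sided, Benjamini-Hochberg over 18505 genes) in R 4.3.3. Each SE is the fold change divided by the square root of F. For large rises from few wild-type counts, as in OAS2 and OASL, it is too small as an error of the fold change. Log2 ratios and log2 CPM used a prior of 0.5 counts. Alternatives used DESeq2 1.42.0, limma 3.58.1 (voom), other scalings, filters and thresholds, a replicate block and leaving out each library.

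Members and lists were chosen with earlier results of these data known. Named genes were the members, YTHDF1, up to 4 genes per list by smallest adjusted p, the closest patterns and the nearest protein-coding neighbours; some genes that this rule takes are left out of the text. On simulated counts for knockout against wild type (18500 genes, 200 changed), all genes changed 1.5-fold or more were recovered, with 11 of 211 calls false. There far fewer genes changed than in these data. The changed genes were drawn only from those above a minimum mean level, and every gene was given the same variation between libraries. Recovery of genes at low levels was therefore not tested. Libraries of a group differed by more than sampling noise (chi-square per degree of freedom 4.4 to 6.55).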

Additional observations from a re-analysis of the deposited data

How the results depend on the processing

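All 6 members kept their direction and stayed past the threshold under each of the 14 alternatives: scaling by RLE or by library size alone, limma-voom, DESeq2, testing every gene with a count or only those with 1 CPM in 3 libraries, the replicate block, leaving out each of the 6 libraries, and an adjusted p threshold of 0.01. Over these, the log2 fold change ran from 5.31 to 5.37 for OAS1, 10.74 to 11.50 for OAS2 (11.50 without wild-type replicate 1), 4.08 to 4.19 for OAS3, 8.51 to 8.67 for OASL, -0.64 to -0.54 for ABCE1 and -0.27 to -0.23 for PDE12, whose largest adjusted p was 0.00737. Genes called ran from 8211 to 10020. Counts called in the related lists stayed within 1.5 times the main count except that of the deadenylases, 4 at the threshold of 0.01 against 7. Differences between OAS genes kept their sign with priors of 0.1 and 2 counts and without each library. The replicate block gave 9703 calls and again 6 members; same-numbered libraries did not deviate together (correlations of -0.0217, -0.0128 and 0.00664), and not every library correlated best with its own number, so the numbers were not used to pair libraries. The 14 wild-type counts limit the precision of the OAS2 ratio.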

Other observations

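The long antisense gene AC004551.1, which runs across the OAS cluster on the opposite strand and was picked once its values were known, had 29, 41 and 40 counts in the knockout libraries and 1 count over the 3 wild-type libraries. The ratio was 101, with an exact 95% counting interval of 17.8 to 4040, and 16% of its exonic bases overlap OAS1. No source used here says whether the counting used strand, so reads of OAS1 and of this gene cannot be told apart there.

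SLC8B1, a mitochondrial exchanger gene 392 kb from the start of OAS1, also picked once its values were known, rose by 1.32 (SE 0.0711, adjusted p of 4.82e-17 in edgeR), with 43.2 ± 1.06 CPM in knockout and 17.3 ± 0.24 CPM in wild type. Nearer to the cluster, DDX54 fell by 0.35, and RITA1 did not pass the test, with 27.1 ± 2.82 CPM in knockout and 25.7 ± 2.15 CPM in wild type.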
